A study of Saccharomyces cerevisiae with 4 samples.

Results

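The peroxiredoxins and thiol-dependent glutathione peroxidases of budding yeast, with sulfiredoxin, which repairs peroxiredoxins, were compared between manganese-adapted and control cultures. The genes were chosen by symbol as 9 of the 7126 features in the deposited expression table: TSA1, TSA2, AHP1, PRX1 and DOT5 (peroxiredoxins), HYR1, GPX1 and GPX2 (glutathione peroxidases) and SRX1 (sulfiredoxin). All 9 symbols were found, each in 1 row. RNA-seq had been run on 4 samples of 1 Saccharomyces cerevisiae strain, CRY, which is MATa and carries deletion alleles of ade2, his3, leu2, trp1 and ura3. The 2 manganese-adapted samples came from cells grown for 120 h in YPD (a rich glucose medium) with manganese sulfate at 2.5 mM, and the 2 control samples from cells grown for 18 h in YPD, in which manganese was estimated at 0.0036 mM. Both cultures were taken at the stationary stage, per the labels. Culture time and manganese differ together in all samples, so their effects cannot be told apart. The labels do not say that the samples of a group came from separate cultures, so the p-values reflect only how far these samples differ, and that spread may be technical.

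Peroxiredoxins reduce hydrogen peroxide and organic peroxides with a reactive cysteine, and the oxidised cysteine is returned to its reduced form mainly by thioredoxin. The yeast glutathione peroxidases belong to the same thiol-based chemistry and carry a cysteine in place of the selenocysteine of many animal enzymes. When peroxide is abundant the peroxiredoxin cysteine can be oxidised further to a sulfinic acid, which sulfiredoxin reverses with ATP. Many genes of this defence are induced under peroxide stress by the transcription factors Yap1 and Skn7, and Hyr1 (also called Gpx3 or Orp1) is the sensor that passes the oxidation on to Yap1.

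Since several of the 9 genes are known Yap1 targets, the 500 bases before each start codon were searched on both strands for a pair of Yap1 elements, TTACTAA and TGACTAA. At least 1 of them was found before 5 of the 9 genes, TSA2, AHP1, GPX1, GPX2 and SRX1, and before 17.1% of the 6006 protein-coding genes whose upstream window was complete. TTACTAA alone was found before 11.8% of genes and TGACTAA before 6.0%. The matches are printed with 11 bases on each side, 5′ to 3′ along the strand of the gene, with the element in capitals (coordinates and sequence from R64, the assembly called sacCer3 by the submitters). Where the capitals read TTAGTAA or TTAGTCA, the element lies on the opposite strand.
TSA2, distal, chrIV:1366118-1366146: agttttttttgTTAGTAAgcgctacgacg
TSA2, proximal, chrIV:1365943-1365971: gtttacaagttTTAGTCAttgggggttgg
AHP1, chrXII:368276-368304: tatgttgtctaTTAGTAAtcaagaaaaga
GPX1, chrXI:389961-389989: acaaatatattTTAGTCAtgtaggtgata
GPX2, distal, chrII:707100-707128: acggacgttacTTACTAAatgtacgacga
GPX2, proximal, chrII:707257-707285: tatctagacaaTTAGTAAttccgatgaca
SRX1, distal, chrXI:277969-277997: tttttccctgaTTAGTAAgctacatcatt
SRX1, proximal, chrXI:278119-278147: cgccattatttTTAGTCAttacagtagcc

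The elements began between 95 bases (GPX1) and 494 bases (AHP1) before the start codon. TSA1, PRX1, DOT5 and HYR1 had no match to these letters in this window, which says nothing of whether Yap1 acts on them. The stress response element AGGGG, which the factors Msn2 and Msn4 bind, was found before 7 of the 9 genes and before 34.1% of all genes. DOT5 and HYR1 had no match to any of the 3 motifs. A match is a description of the letters and not evidence of binding.

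**Figure D1:**
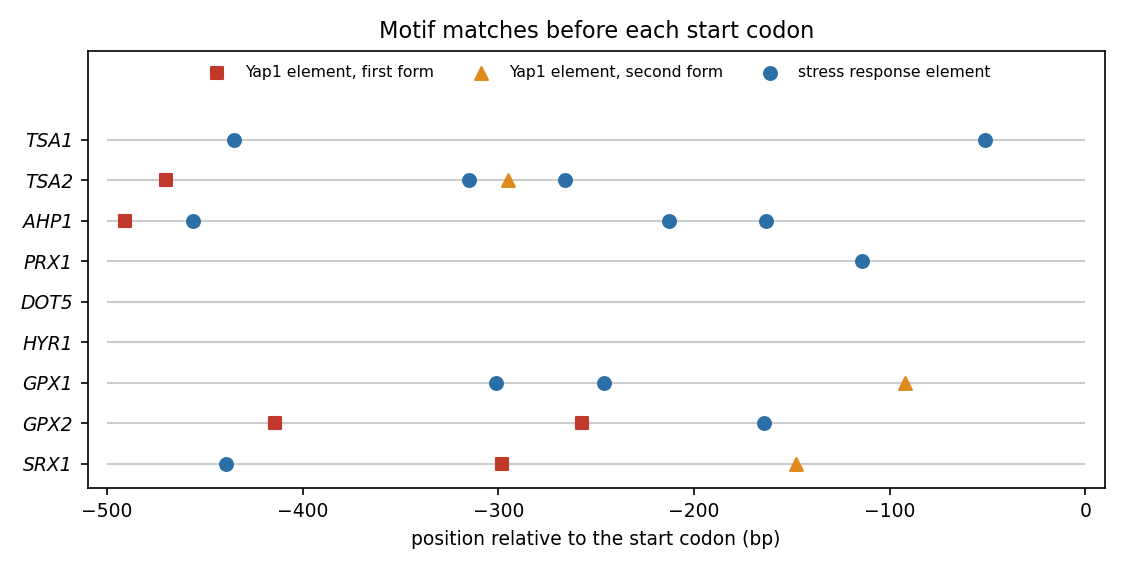
Position of each motif match before the start codon (x axis, bp) of the 9 genes (rows). Squares are the Yap1 element TTACTAA, triangles the Yap1 element TGACTAA and circles the stress response element AGGGG, on either strand. TSA2, GPX2 and SRX1 hold 2 Yap1 elements each, and DOT5 and HYR1 hold no match.

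The 9 genes lie on 6 chromosomes, each as a single coding exon of 384 bp (SRX1) to 786 bp (PRX1), and none overlaps another gene annotated in R64. TSA1 (YML028W, chrXIII:220138-220728, plus strand) and TSA2 (YDR453C, chrIV:1365072-1365662, minus strand) are paralogs of 591 bp each. Their coding sequences were 78.5% identical, the longest run they shared was 14 bases, ggtaagtacgttgt, and no stretch of 50 bases occurred in both. Of the other pairs, GPX2 and HYR1 were the most alike, at 69.9% identity with a longest shared run of 23 bases. The sources used here do not give how reads that map to more than 1 place were treated.

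The libraries held 12307870 to 13739798 reads in the manganese-adapted group and 13466475 to 14184276 reads in the control group. Levels are CPM as deposited, in which the read total of each library had been multiplied by a factor of 0.987 to 1.03 before scaling. Scaling by library size only, used as an alternative, leaves that factor out. Levels of different genes are compared as CPM per kb of coding sequence. Log2(CPM + 1) values correlated at 0.996 between the manganese-adapted libraries, at 0.994 between the control libraries and at 0.917 to 0.931 between groups (Pearson's r over genes, which are no independent replicates). Of 5 markers of a cells 2 were called higher and 3 lower, and their summed level was 255 and 257 CPM in manganese-adapted and 246 and 270 CPM in control libraries. The MATa marker STE2 was read at 60.0 and 59.8 CPM in manganese-adapted and at 98.5 and 113 CPM in control libraries. BAR1, another of the 5, went the other way, at 56.9 and 56.1 CPM in manganese-adapted and 31.1 and 27.6 CPM in control libraries. Of 4 markers of alpha cells, a type this strain should lack, 3 were called higher and 1 lower, with a summed level of 138 and 149 CPM in manganese-adapted and 69.5 and 66.7 CPM in control libraries. Among them STE3 was read at 26.6 and 30.2 CPM in manganese-adapted and at 6.44 and 5.41 CPM in control libraries. MF(ALPHA)2 was the 1 called lower, at 3.32 and 5.29 CPM in manganese-adapted and 6.87 and 6.84 CPM in control libraries. Over all tested genes 34.9% were called lower and 33.6% higher. The part of these markers in the results was not tested. The 5 genes that carry deletion alleles also had reads, from 37.1 (TRP1) to 830 (LEU2) CPM in manganese-adapted and from 37.0 (HIS3) to 486 (LEU2) CPM in control libraries. The comparison used limma-trend on log2(CPM + 1) over 6296 genes, with Benjamini-Hochberg adjusted p below 0.05 as the threshold. A difference is relative to the other RNA of a library, so a change in total RNA would not be seen. In bulk RNA, a smaller share of cells that express a gene and less RNA per cell cannot be told apart.

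All 9 genes were lower in the manganese-adapted libraries than in the control libraries, and all 9 passed the threshold. In the same fit 34.9% of all tested genes were called lower and 33.6% higher (68.5% in either direction). The median log2 fold change of the 9 genes was -0.54, against -0.01 over all tested genes. For each gene both manganese-adapted libraries lay below both control libraries, which was so for 43.3% of tested genes. All 9 passed the filter on low values, with at least 12.2 CPM in every library. Together they took 3391 and 3375 CPM in the manganese-adapted libraries and 4997 and 5284 CPM in the control libraries, a ratio of 0.658. Without manganese-adapted replicate 1 all 9 log2 fold changes stayed negative, from -1.11 (TSA2) to -0.27 (SRX1). That fit called fewer of the 9 genes lower, and also fewer of all tested genes.

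Short genes were lower as a class in these libraries, and all 9 genes are short. Of the 851 tested genes with a coding length under 500 bp, 61.6% were called lower and 16.5% higher, and their median log2 fold change was -0.59. Of the 840 genes of 500 to under 800 bp, 56% were called lower and 19.2% higher, with a median of -0.33. SRX1, GPX2 and HYR1 fall in the first range and the other 6 in the second. Among genes of 3000 bp and over, 12.4% were called lower and 58.3% higher. With the trend of level on coding length removed in each library, 5 of the 9 genes were called lower (TSA1, TSA2, GPX2, HYR1 and DOT5), beside 36.2% of all 5769 genes in that fit. AHP1, PRX1, GPX1 and SRX1 were then not called.

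**Figure D2:**
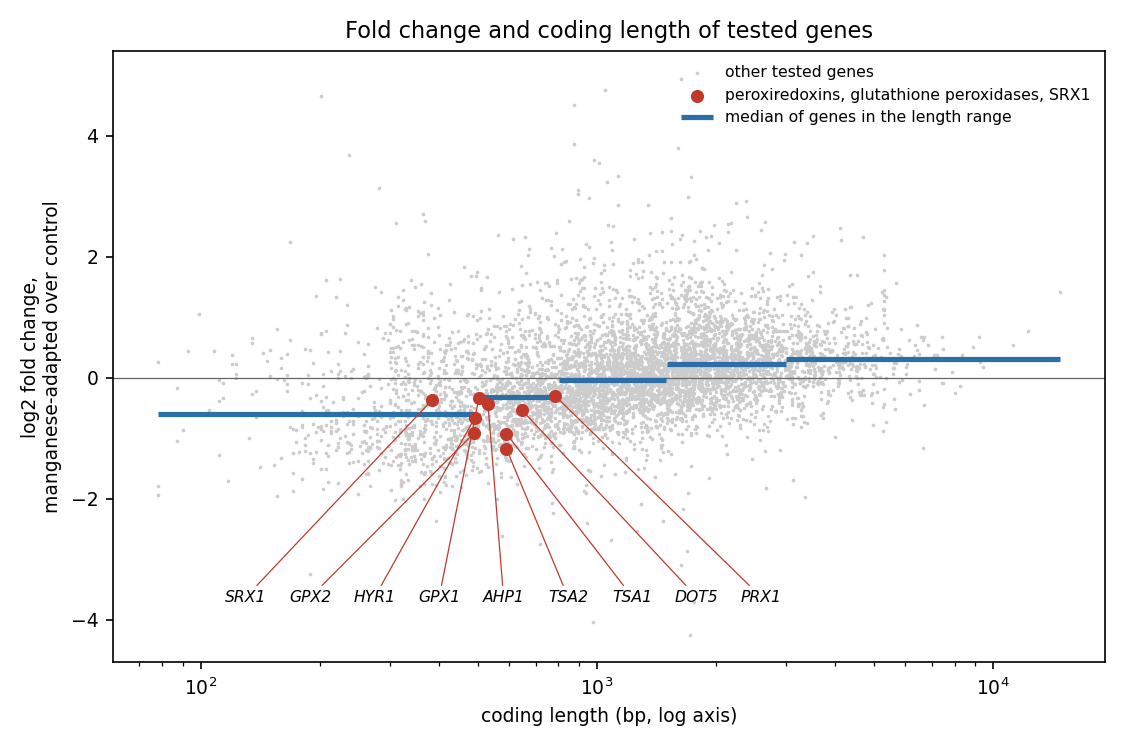
Coding length (x axis, bp, log axis) against log2 fold change, manganese-adapted over control (y axis), for tested genes with an annotated coding length. Red points are the 9 genes, grey points the other genes and blue bars the median in each length range. The medians run from -0.59 under 500 bp to 0.31 at 3000 bp and over. TSA2, TSA1 and GPX2 lie furthest below the bar of their own length range.

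TSA2, GPX2 and TSA1 had the largest differences of the 9 genes. TSA1 encodes the major cytosolic peroxiredoxin, a thioredoxin peroxidase that also acts as a chaperone. Its transcript was read at 1044 and 982 CPM in manganese-adapted libraries, against 1847 and 1999 CPM in control libraries. The gap between the groups was several times the gap within either. TSA1 fell to 52.7% of the control mean, a log2 fold change of -0.92 ± 0.13 (SE, limma adjusted p 9.36e-05). With the length trend removed its log2 fold change was -0.61 (adjusted p 0.00115).

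TSA2, its less expressed cytosolic paralog, was read at 50.6 and 55.2 CPM in manganese-adapted libraries, against 118 and 123 CPM in control libraries. Replicates differed by a few CPM in both groups, and the groups were far apart. TSA2 fell to 44% of the control mean (log2 fold change -1.17 ± 0.09 SE, limma adjusted p 1.48e-06), and by 0.86 on the log2 scale with the length trend removed. TSA2 stood at 4.84% and 5.62% of the TSA1 level in manganese-adapted libraries and at 6.38% and 6.14% in control libraries. These ratios did not overlap between the groups, but with 2 samples a group the exact two-sided permutation test cannot give a p below 0.333. The same limit holds for each ratio and share given here.

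AHP1 (YLR109W, chrXII:368781-369311) encodes a thiol-specific peroxiredoxin that prefers alkyl hydroperoxides. Its level was 972 and 1026 CPM in manganese-adapted libraries, against 1281 and 1420 CPM in control libraries. The groups did not overlap, and the control libraries stood further apart than the manganese-adapted libraries. AHP1 fell to 74% of the control mean, a log2 fold change of -0.43 ± 0.12 (SE, limma adjusted p 0.00898). Leaving out manganese-adapted replicate 1 ended the call (adjusted p 0.0673), as did removing the length trend (log2 fold change -0.07, adjusted p 0.607).

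By level per kb of coding sequence, TSA1 and AHP1 changed places as the most abundant of the 9 transcripts. In CPM, not divided by coding length, TSA1 led in manganese-adapted replicate 1 (1044 against 972) and AHP1 in replicate 2 (1026 against 982). Per kb of coding sequence AHP1 led in both manganese-adapted libraries, at 1831 and 1932 CPM per kb, with TSA1 at 1767 and 1661. TSA1 led in both control libraries, at 3125 and 3382 CPM per kb, with AHP1 at 2412 and 2673. The AHP1 level was 104% and 116% of that of TSA1 in manganese-adapted libraries and 77.2% and 79.0% in control libraries. Among the 5769 genes with a coding length, TSA1 ranked 61 by mean level in the manganese-adapted group and 37 in the control group. AHP1 ranked 52 in the manganese-adapted group and 51 in the control group.

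PRX1 (YBL064C, chrII:100371-101156) encodes the mitochondrial peroxiredoxin, which works with a single active cysteine. Its level was 768 and 745 CPM in manganese-adapted libraries, against 937 and 931 CPM in control libraries. Replicates lay close together in both groups, and the groups did not overlap. PRX1 had the smallest difference of the 9 genes, at 81% of the control mean (log2 fold change -0.30 ± 0.11 SE, limma adjusted p 0.0253). Leaving out any 1 library ended the call, with log2 fold changes of -0.33 to -0.28. Such a fit takes its spread from the other group alone, so a lost call does not show that each library was needed. Removing the length trend gave a log2 fold change of -0.16 (limma adjusted p 0.195). The PRX1 level stood at 55.3% and 57.0% of that of TSA1 in manganese-adapted libraries and at 38.1% and 35.0% in control libraries.

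DOT5 (YIL010W, chrIX:334882-335529) encodes the nuclear thiol peroxidase. Its transcript stood at 46.8 and 49.4 CPM in manganese-adapted libraries, against 66.8 and 74.0 CPM in control libraries. The groups did not overlap, and DOT5 fell to 68.3% of the control mean (log2 fold change -0.54 ± 0.09 SE, limma adjusted p 0.000493). With the length trend removed its log2 fold change was -0.28 (adjusted p 0.0159). The share of DOT5 in the summed level per kb of the 9 genes overlapped between groups. It was 1.25% and 1.32% in manganese-adapted and 1.21% and 1.26% in control libraries.

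**Figure D3:**
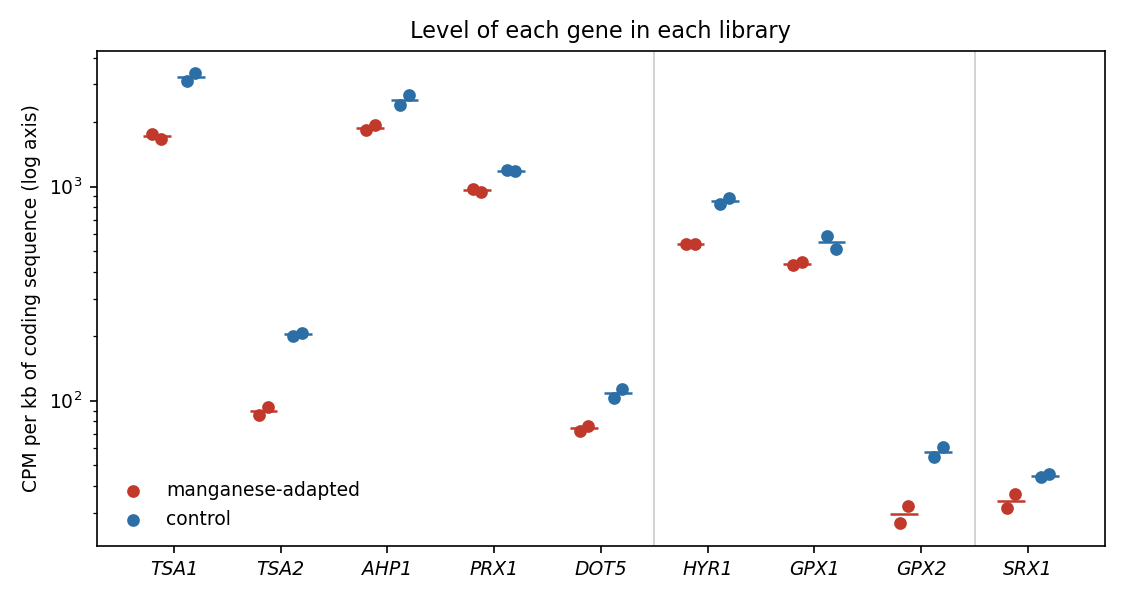
Level of each gene (y axis, CPM per kb of coding sequence, log axis) in the 2 manganese-adapted libraries (red) and the 2 control libraries (blue). Points are libraries and bars are group means. In every gene both red points lie below both blue points, and the gap is widest for TSA2 and narrowest for GPX1.

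Among the glutathione peroxidases, HYR1 (YIR037W, chrIX:423128-423619), the peroxide sensor upstream of Yap1, was the most abundant. It was read at 266 and 265 CPM in manganese-adapted libraries, against 407 and 434 CPM in control libraries. The manganese-adapted replicates were nearly equal, and both lay far below the controls. HYR1 fell to 63.1% of the control mean (log2 fold change -0.66 ± 0.09 SE, limma adjusted p 6.36e-05), and by 0.28 on the log2 scale with the length trend removed (adjusted p 0.0157).

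GPX2 (YBR244W, chrII:707528-708016), a phospholipid hydroperoxide glutathione peroxidase and a known Yap1 target, was the least abundant of the family. It was read at 13.1 and 15.8 CPM (178 and 200 reads) in manganese-adapted libraries, against 26.6 and 29.7 CPM (376 and 395 reads) in control libraries. The groups did not overlap. GPX2 fell to 51.4% of the control mean (log2 fold change -0.92 ± 0.13 SE, limma adjusted p 9.36e-05), and by 0.54 with the length trend removed (adjusted p 0.00119). With a pseudocount of 10, which weighs on genes at this level, its log2 fold change was -0.64.

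GPX1 (YKL026C, chrXI:389380-389883), the phospholipid hydroperoxide glutathione peroxidase known to be induced by starvation, differed less. Its level was 217 and 223 CPM in manganese-adapted libraries, against 297 and 257 CPM in control libraries. The groups did not overlap, but the gap between the control libraries was larger than the gap from the lower control to the manganese-adapted libraries. GPX1 fell to 79.4% of the control mean (log2 fold change -0.33 ± 0.09 SE, limma adjusted p 0.00989). Leaving out manganese-adapted replicate 1 (adjusted p 0.0955) or manganese-adapted replicate 2 (0.0692) ended the call, and with the length trend removed the log2 fold change was 0.05 (adjusted p 0.695). GPX1 made up 43.1% and 43.6% of the summed level of the 3 glutathione peroxidases in manganese-adapted libraries and 40.1% and 35.0% in control libraries.

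SRX1 (YKL086W, chrXI:278281-278664), the sulfiredoxin that restores over-oxidised Tsa1, was read at 12.2 and 14.1 CPM (165 and 178 reads) in manganese-adapted libraries, against 16.8 and 17.4 CPM (238 and 232 reads) in control libraries. The groups did not overlap, and the manganese-adapted libraries differed more between themselves than the controls. SRX1 fell to 76.5% of the control mean (log2 fold change -0.37 ± 0.13 SE, limma adjusted p 0.025). It was no longer called without control replicate 2 (adjusted p 0.0758), without manganese-adapted replicate 1 (0.153), when scaled by library size only (0.0516) or in DESeq2 (0.092). With the length trend removed SRX1 had a log2 fold change of 0.07 (adjusted p 0.562), and with the GC trend removed it had -0.79. Its coding sequence has the highest GC content of the 9, at 59.1%. The SRX1 level was 1.79% and 2.20% of that of TSA1 in manganese-adapted libraries and 1.40% and 1.34% in control libraries, with no overlap between the groups.

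**Figure D4:**
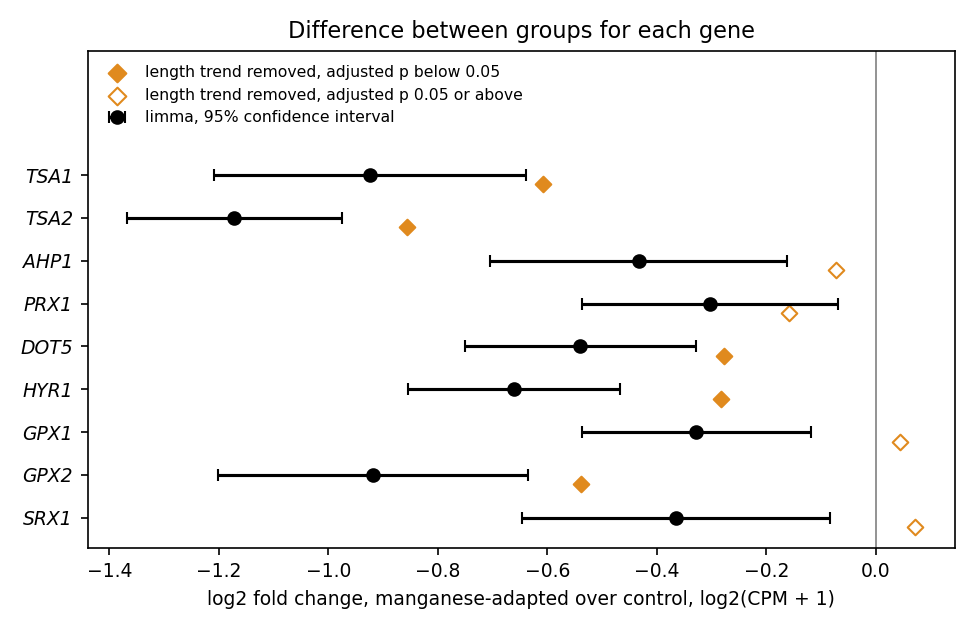
Log2 fold change, manganese-adapted over control on the log2(CPM + 1) scale (x axis), for each of the 9 genes (rows). Black points are the limma values with 95% confidence intervals. Diamonds are the values with the coding length trend removed, filled where adjusted p was below 0.05. TSA1, TSA2, GPX2, HYR1 and DOT5 have filled diamonds, and the diamonds of GPX1 and SRX1 lie at 0.05 and 0.07.

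By mean level per kb, the order in manganese-adapted libraries was AHP1, TSA1, PRX1, HYR1, GPX1, TSA2, DOT5, SRX1 and GPX2. In control libraries it was TSA1, AHP1, PRX1, HYR1, GPX1, TSA2, DOT5, GPX2 and SRX1. The means ran from 1881 ± 71.4 (AHP1) to 29.6 ± 3.85 (GPX2) CPM per kb in manganese-adapted libraries and from 3254 ± 182 (TSA1) to 44.6 ± 1.07 (SRX1) CPM per kb in control libraries (SD, n = 2). SRX1 and GPX2 overlapped in the manganese-adapted libraries, and no other neighbours in either order did. Per kb, AHP1 and TSA1, and SRX1 and GPX2, stood in the opposite order in the groups. The 5 genes from PRX1 to DOT5 kept their places in both groups. In mean CPM, not divided by coding length, TSA1 stood above AHP1 and GPX2 above SRX1 in both groups. The manganese-adapted means were 1013 (TSA1), 999 (AHP1), 14.5 (GPX2) and 13.1 (SRX1) CPM.

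The authors' deposited table gives a log2 fold change and a false discovery rate of its own for each gene. In the authors' deposited table all 9 genes are lower in manganese-adapted cells, from -1.19 for TSA2 (false discovery rate 4.29e-27) to -0.30 for PRX1 (0.018). SRX1 has the highest false discovery rate of the 9 in the authors' deposited table, at 0.0361. By p-value it ranks only 4096 among the 7126 features there, and TSA2 ranks 331, so low values are common in that table.

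The partners of these enzymes were read from 7 lists of other peroxide-defence genes, 50 in all, of which 26 were called lower and 10 higher, and 24 lower and 9 higher with the length trend removed. Each list count before that removal is to be read beside the 34.9% of all tested genes called lower and the 33.6% called higher. With the length trend removed, 2090 of the 5769 genes in that fit were called lower and 1807 higher (median log2 fold change -0.05). In the thioredoxin system, which supplies the peroxiredoxins with electrons, 4 of 5 genes fell and none rose (median log2 fold change -0.67, against -0.01 over all tested genes). TRX2, a cytosolic thioredoxin, was read at 253 and 279 CPM in manganese-adapted and 739 and 703 CPM in control libraries (log2 fold change -1.44 ± 0.10 SE). TRX1, the other cytosolic thioredoxin, was read at 109 and 114 CPM in manganese-adapted and 269 and 289 CPM in control libraries (log2 fold change -1.31). TRR1, the cytosolic thioredoxin reductase, had a log2 fold change of -0.67. These 3 had limma adjusted p of at most 0.00021, and all 3 were also called lower with the length trend removed, at -0.96, -0.84 and -0.63.

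Of 13 glutathione and glutaredoxin genes 9 fell and 1 rose (median -0.53), and with the length trend removed 9 were called lower and 3 higher (median -0.37). The glutaredoxins GRX1 (-1.36) and GRX2 (-1.09) fell most, while GRX6, a glutaredoxin of the secretory pathway, rose to 138 and 145 CPM in manganese-adapted libraries, against 74.0 and 59.9 CPM in control libraries. Of 6 other peroxide and superoxide enzymes 3 fell and 1 rose (median -0.29). CTA1, the peroxisomal catalase, rose by 1.56 on the log2 scale, while CCS1, the copper chaperone of superoxide dismutase, fell by 0.76. SOD1, the cytosolic superoxide dismutase, fell by 0.60 (limma adjusted p 0.0123), a call that ended without control replicate 1 (0.0739), without manganese-adapted replicate 2 (0.0595) and with the length trend removed (-0.21, adjusted p 0.316).

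Both methionine sulfoxide reductases, which repair oxidised methionine, fell: MXR1 by 0.40 and MXR2 by 0.35. Neither was called with the length trend removed (-0.05 and 0.02), and MXR1 was not called without manganese-adapted replicate 1 (limma adjusted p 0.0585). The 12 genes of NADPH supply went both ways, with 4 higher and 5 lower (median -0.12), shares not far from those over all tested genes. GND1, the major 6-phosphogluconate dehydrogenase, was read at 85.3 and 86.8 CPM in manganese-adapted and 377 and 526 CPM in control libraries (log2 fold change -2.36 ± 0.13 SE). SOL3, a 6-phosphogluconolactonase, fell by 0.80, and IDP3, the peroxisomal NADP-dependent isocitrate dehydrogenase, rose by 1.25.

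Transcripts of the regulators went both ways. Of 7 regulators 2 rose and 2 fell (median 0.19), and with the length trend removed 1 was called higher and 2 lower and the median was -0.09. YAP1 was read at 338 and 350 CPM in manganese-adapted and 270 and 261 CPM in control libraries, a log2 fold change of 0.37 ± 0.08 (SE, limma adjusted p 0.00252), which was not called with the length trend removed (0.12, adjusted p 0.23). SKN7 rose by 0.54, and by 0.30 with the length trend removed (adjusted p 0.00764). YBP1, which encodes a Yap1-binding protein needed for Hyr1 to oxidise Yap1, was read at 81.1 and 89.1 CPM in manganese-adapted and 79.2 and 77.9 CPM in control libraries (log2 fold change 0.11, adjusted p 0.277). MSN4, a factor of the general stress response, fell by 0.94. Of 5 other Yap1 targets 2 rose and 1 fell (median 0.11), and with the length trend removed 2 were called higher and 3 lower and the median was -0.23. The transporters FLR1 (1.16) and ATR1 (0.46) rose, and OYE2, an NADPH oxidoreductase, fell by 0.35, a call that ended when manganese-adapted replicate 1 (adjusted p 0.0761) was left out, or manganese-adapted replicate 2 (0.0752).

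**Figure D5:**
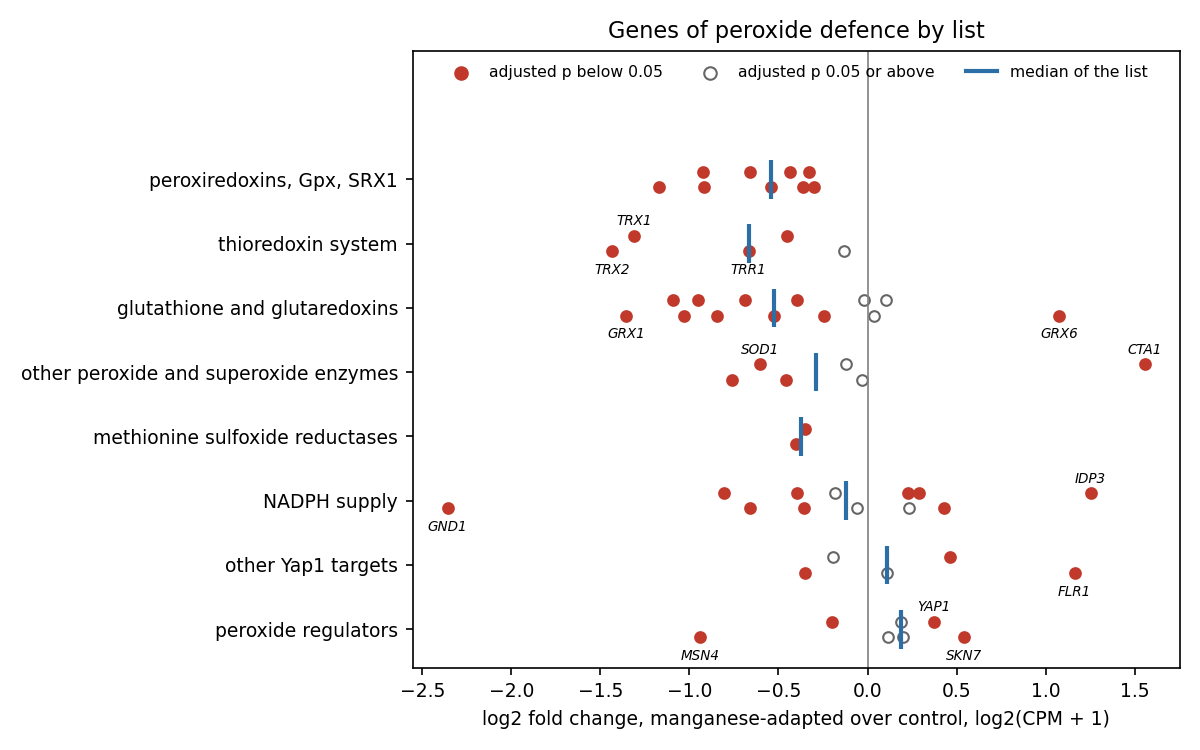
Log2 fold change, manganese-adapted over control on the log2(CPM + 1) scale (x axis), for the 9 genes (top row) and for 7 lists of other peroxide-defence genes. Each point is a gene, filled where adjusted p was below 0.05, and blue bars are medians. The 9 genes, the thioredoxin system and the methionine sulfoxide reductases hold no called gene above 0. The medians of the regulators (0.19) and the other Yap1 targets (0.11) turn to -0.09 and -0.23 with the coding length trend removed.

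Of the 18 nearest R64 neighbours of the 9 genes, 1 on each side of each gene, 6 were called lower, 6 higher and 6 were not called (limma), near the 34.9% lower and 33.6% higher over all tested genes.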

How the data were processed

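Total RNA had been made into libraries with a TruSeq RNA kit, per the labels. The deposited table holds CPM per gene and library, headed as counts. The submitters' processing notes name build sacCer3 and the tools TopHat2 2.0.13, Bowtie, cutadapt 1.8.1, edgeR and HTSeq. The sources used here give neither their roles nor the annotation or strand setting. For each gene the authors also deposited a p-value, a false discovery rate and a log2 fold change, from a test the sources used here do not name.

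In units of 1 read, 100% of the CPM values were whole to within 0.001, so reads were recovered and used for totals and count tests. The limit of 3 reads, 0.212 to 0.237 CPM, covers counting error only. Groups came from the adaptation status and replicate numbers from the titles. limma 3.58.1 (R 4.3.3) with a mean trend was fitted to log2(CPM + 1) of the 6296 genes that reached 1 CPM in at least 2 samples, with 2 residual degrees of freedom. This scale understates the change of low genes. Coordinates, coding lengths and sequence came from the R64 RefSeq annotation, to which 84.9% of features matched by locus tag. The limma fit was also run on simulated data, where it missed most of the smallest changes set and its share of false calls lay above the threshold.

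The 9 genes and the lists were chosen with earlier results of these data known. Named are the 9 genes, TRX1, TRX2, TRR1, YAP1, SKN7, YBP1 and, from each list, up to 3 called genes with the largest change. Alternatives were other pseudocounts (0.25, 10), filters (none, 10 CPM), scalings, edgeR 4.0.16, DESeq2 1.42.0, a replicate block, removal of the coding length or GC trend (loess, span 0.4) and leaving out each library.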

Additional observations from a re-analysis of the deposited data

How the results depend on the processing

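The count of the 9 called lower was 5 with the coding length trend removed and 8 in DESeq2 and with library size only. Over all genes 2090 were called lower with the length trend removed, 1980 in DESeq2 and 2052 with library size only, against 2195 in the main fit. Called higher over all genes were 1807, 1938 and 2149 in the same fits, in that order, against 2118 in the main fit. Whichever library was left out, fewer of the 9 genes and fewer of all genes were called lower than in the main fit. None of the 9 was called higher under any of the 16 alternatives. With the coding length trend removed, GPX1 (0.045), SRX1 (0.072) and MXR2 (0.019) turned to a positive log2 fold change and YBP1 (-0.15) to a negative one, none of them called. TSA1, TSA2, DOT5, GPX2 and HYR1 kept their call and direction in all 16. edgeR's quasi-likelihood test called all 9 lower, as it did 2186 of all genes, with 2128 higher. With the replicate block in the fit, 9 were called lower, as were 2131 of all genes, with 2065 higher. Same-numbered deviations from the group means correlated at -0.179, and a block with the numbers crossed, chosen after seeing the data, gave 9 of the 9, 2247 lower and 2179 higher. The numbers are not stated to mark a shared culture. Leaving out 1 library also removes a residual degree of freedom and leaves 1 library in that group. The residual spread of a gene then comes from the other group alone, so those p-values are not comparable with the main fit.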
